A study of Mus musculus with 12 samples.

Results

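The Ras and Rap regulators described here were 10 genes that set the activity of the small GTPases Ras and Rap or carry their signal. They comprised 3 exchange factors (Rasgrp1, Rasgrp2 and Rasgrp3), 5 GTPase-activating proteins (Rasa1, Rasa2, Rasa3, Rasal3 and Nf1) and 2 proteins of the Ras association domain family, RASSF (Rassf3 and Rassf5). The rows were picked by gene symbol, and each of the 10 symbols stood on 1 of the 24046 rows of the count files. All 10 passed the filter on low counts that left 12242 genes for testing, and the smallest count of any of them in any library was 122. The genes were put together with earlier results of these data known, so their tests describe them and are not independent evidence.

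Ras and Rap proteins are molecular switches that are on when bound to GTP. Exchange factors load them with GTP, and GTPase-activating proteins return them to the off state. In B cells, cross-linking of the antigen receptor activates phospholipase C, whose product diacylglycerol recruits RasGRP proteins to membranes. Active Ras feeds the Raf, MEK and ERK kinases, whereas active Rap controls integrins and the cytoskeleton.

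Messenger RNA was sequenced from sorted splenic FO B cells, the follicular B cells that make up most of the recirculating pool, of Jmjd1c KO and Jmjd1c WT mice. Jmjd1c encodes a JmjC family protein, a family that includes histone demethylases, and the series title links it to autoimmunity and to the production of HIT antibodies. The groups were KO cells after 2 h of anti-IgM, which cross-links surface IgM on B cells, WT cells after 2 h of anti-IgM, KO cells at 0 h and WT cells at 0 h. Each group had 3 libraries, and each of the 6 animals gave a library at both times. All groups shared the sort and the poly(A) selection. The sources used here do not give which part of Jmjd1c was deleted, in which cells, or how old the animals were. Cells kept for 2 h without anti-IgM were not analysed here, so time in culture and receptor cross-linking cannot be told apart.

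Total counts were between 5666013 and 14153396 per library. Jmjd1c was lower in KO than in WT at 2 h (log2 difference -0.52 ± 0.13, SE, adjusted p = 0.887) and at 0 h (-0.56 ± 0.13, adjusted p = 0.9999). Neither difference passed the edgeR test, and every KO library lay below every WT library of the same time. DESeq2 with the batch as a block called Jmjd1c at both times (adjusted p = 4.25e-07 at 2 h and 1.42e-09 at 0 h), and no other alternative called it. Adjusted p was 0.678 at 2 h and 0.99997 at 0 h in edgeR with the same block, and 0.174 at 2 h and 0.146 at 0 h in DESeq2 without it. The labels number the batches from 1 to 3, and the KO 2 h library of batch 1 stood apart. In it the 45S ribosomal RNA row, Rn45s, took 52.3% of the counts, and Mki67, a marker of dividing cells, was at 530 CPM (counts scaled to library size, with TMM factors). The other 11 libraries had Rn45s shares of 0.418% to 24.8% and Mki67 levels of 8.81 to 138 CPM. Both upper ends were in the WT 2 h library of batch 1, whereas at 0 h batch 1 had Rn45s shares of 0.572% in KO and 1.09% in WT. Rn45s thus went with time in batch 1 in both genotypes. Over both times the share was 12.9% to 15.5% in batch 2 and 0.418% to 0.624% in batch 3. The part of Rn45s in the results was not tested. Some results that turn on this library are also given without it. The follicular B cell label was read against Ms4a1, which encodes CD20, at means of 525 CPM in KO and 463 CPM in WT at 2 h, and 568 CPM in KO and 459.9 CPM in WT at 0 h. Fcer2a, which encodes CD23 of follicular B cells, averaged 474 CPM in KO and 501 CPM in WT at 2 h, and 545 CPM in KO and 452 CPM in WT at 0 h. Other B cell markers moved between the times, and their values stand with the markers of other cells.

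Promoter sequences are shown for the members that were called lower at 2 h in both genotypes and had a RefSeq promoter window. The account of the 2 h response rests mainly on the members called in both genotypes. Each window runs from 250 bases before to 50 bases after the RefSeq start, 5′ to 3′ on the strand of the gene, in GRCm38.p6, and 9 of the 10 members had one. Capitals mark matches, on either strand, to the CCAAT box (CCAAT), the GC box (GGGCGG) and the E-box (CACGTG). For Rasgrp2, which had 2 windows, the first is shown.
Rasa3, chr8:13677538-13677837, minus strand: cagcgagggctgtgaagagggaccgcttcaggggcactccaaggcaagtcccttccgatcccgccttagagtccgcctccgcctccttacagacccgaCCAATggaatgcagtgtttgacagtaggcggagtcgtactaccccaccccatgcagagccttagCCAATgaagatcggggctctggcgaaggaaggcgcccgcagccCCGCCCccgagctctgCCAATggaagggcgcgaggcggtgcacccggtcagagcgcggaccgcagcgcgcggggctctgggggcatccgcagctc
Rasgrp2, chr19:6399625-6399924, plus strand: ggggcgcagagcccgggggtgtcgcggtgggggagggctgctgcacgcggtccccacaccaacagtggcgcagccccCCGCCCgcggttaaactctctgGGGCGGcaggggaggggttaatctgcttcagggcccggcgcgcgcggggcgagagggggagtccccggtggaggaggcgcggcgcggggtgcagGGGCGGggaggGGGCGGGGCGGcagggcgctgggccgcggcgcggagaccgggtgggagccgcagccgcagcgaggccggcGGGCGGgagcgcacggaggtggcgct
Rasgrp1, chr2:117342828-117343127, minus strand: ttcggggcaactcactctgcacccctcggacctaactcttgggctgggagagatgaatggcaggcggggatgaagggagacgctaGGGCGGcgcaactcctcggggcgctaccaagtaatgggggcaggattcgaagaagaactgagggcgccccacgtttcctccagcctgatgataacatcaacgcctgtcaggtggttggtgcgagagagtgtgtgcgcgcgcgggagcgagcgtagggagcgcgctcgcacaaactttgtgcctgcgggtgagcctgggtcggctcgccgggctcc
Rassf5, chr1:131200136-131200435, minus strand: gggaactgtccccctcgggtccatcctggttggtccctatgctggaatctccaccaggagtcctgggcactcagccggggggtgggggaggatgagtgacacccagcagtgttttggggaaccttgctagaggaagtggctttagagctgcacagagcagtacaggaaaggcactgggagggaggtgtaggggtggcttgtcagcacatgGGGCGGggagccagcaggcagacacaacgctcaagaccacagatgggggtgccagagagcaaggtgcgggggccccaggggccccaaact

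The Rasa3 window held 3 CCAAT boxes, whose first bases lay 152, 88 and 29 bases before the start, and 1 GC box. Among all 32851 windows of the same length, 37.4% held at least 1 CCAAT box and 3.37% held 3 or more. The Rasgrp2 window shown held 6 GC boxes, of which a pair overlapped by 1 base, whereas 35.7% of all windows held at least 1 and 1.35% held 6 or more. The second window of Rasgrp2 held 2 GC boxes, and 19.5% of all windows held 2 or more. Rasgrp1 and Rassf5 had 1 GC box each, and the windows shown for Rasgrp2 and Rassf5 lay wholly inside the annotated genes. GC boxes were also in windows of members that did not pass the test, namely 3 in Rasa2, 2 in Rasa1 and 1 each in Rasal3 and Nf1. Neither window of Rasgrp3 matched any motif searched. The E-box was found in 7.15% of all windows and among members in Rasal3 alone. The FOXO core GTAAACA was found in 3.65% of all windows and among members in Rasa1 alone. A form of the NF-kB site was in 0.155% of all windows, the EGR1 site GCGTGGGCG was in 0.612%, and neither was in a member's window.

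Resting FO B cells expressed all 10 regulators, and per kb of exon Rasa3 led. Rasa3, a GTPase-activating protein for Ras and Rap, was at 173 ± 17.1 CPM per kb in KO and 174 ± 13.5 CPM per kb in WT at 0 h (SD, n = 3). Rasgrp2, Rasal3, Rassf3 and Rasgrp3 followed at means of 52.9 to 87.9 CPM per kb, Rassf5 at 36.8 in KO and 36.2 in WT, and Rasgrp1, Rasa1 and Rasa2 at 18.9 to 28.5. Nf1, which encodes neurofibromin, a large Ras GTPase-activating protein, was lowest at 4.71 in KO and 5.05 in WT. The libraries of Rasa3 stood clear of those of Rasgrp2 in both genotypes at 0 h. Neighbours in the order whose libraries overlapped were Rasal3 and Rassf3, Rassf3 and Rasgrp3, and Rasgrp1 and Rasa1 in KO. In WT they were Rasgrp2 and Rasal3, Rasa1 and Rasgrp1, and Rasgrp1 and Rasa2. Levels of Rasgrp2 depend on the length used, since its longest transcript has 2296 bases and its merged exons have 3985.

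At 2 h the order was different. Rasal3, a Ras GTPase-activating protein of blood cells, had the highest mean at 52.4 ± 16.3 CPM per kb in KO and 61.7 ± 7.56 in WT, followed by Rasa3 at 41.8 ± 2.36 in KO and 55.0 ± 7.07 in WT. Their libraries overlapped in both genotypes. Further down the order at 2 h, all neighbours in KO overlapped except Rasgrp1 and Nf1, which were lowest. In WT the libraries were separate between Rasa3 and Rasgrp3, between Rasa2 and Rasgrp1 and between Rasgrp1 and Nf1, and the other neighbours overlapped. Of the summed level of the 5 GTPase-activating proteins, Rasa3 made up 29.6% in KO and 32.6% in WT at 2 h, against 57.5% in KO and 57.1% in WT at 0 h. Rasal3 made up 36.2% in KO and 36.5% in WT at 2 h, against 25.3% in KO and 26.0% in WT at 0 h. Among the exchange factors, Rasgrp3 took the largest share at 2 h with 46.5% in KO and 45.3% in WT, whereas Rasgrp2 did so at 0 h with 48.3% in KO and 52.4% in WT. Per kb of the longest transcript the order at 2 h was reversed, with Rasgrp2 at 37.4 in KO and 42.3 in WT and Rasgrp3 at 31.9 in KO and 33.5 in WT. The summed level of the 3 exchange factors was 64.2 ± 18.1 CPM per kb in KO and 69.8 ± 12.4 in WT at 2 h, against 182 ± 3.77 in KO and 163 ± 10.8 in WT at 0 h. The 5 GTPase-activating proteins summed to 144 ± 25.6 in KO and 169 ± 8.31 in WT at 2 h, against 300.0 ± 10.1 in KO and 304 ± 7.22 in WT at 0 h.

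**Figure D1:**
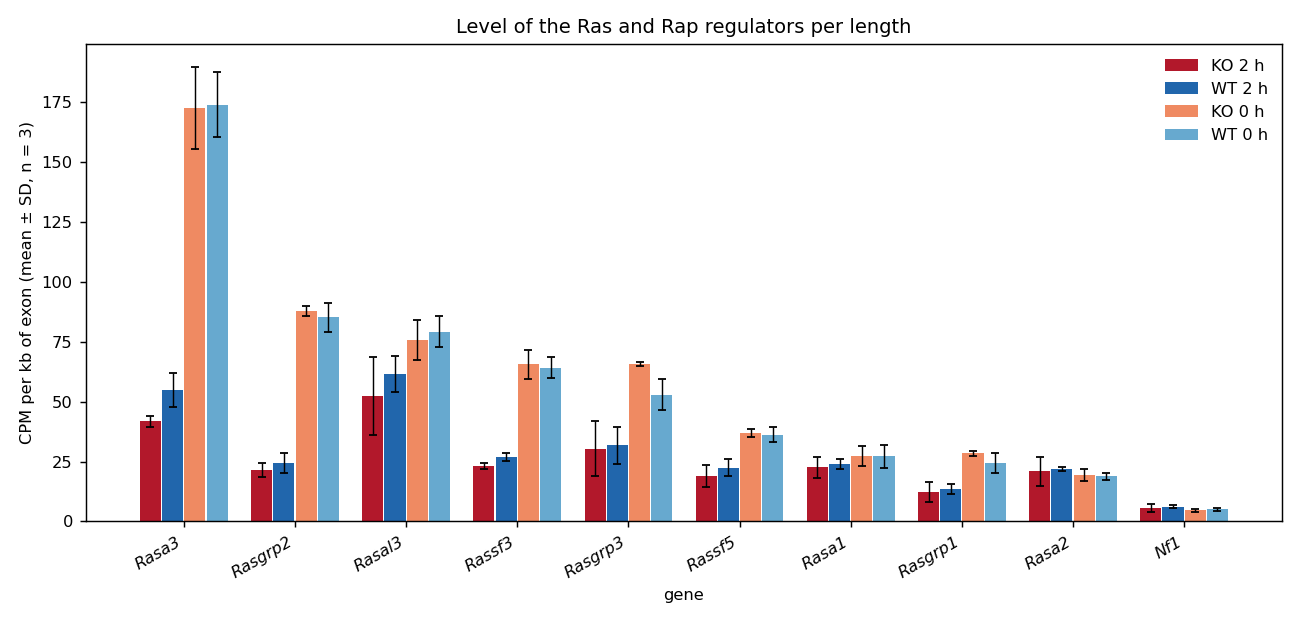
Mean level of each regulator in TMM-scaled CPM per kb of exon (y axis) for KO 2 h, WT 2 h, KO 0 h and WT 0 h, with bars for the SD over 3 libraries. Rasa3 is the tallest at 0 h, at 173 in KO and 174 in WT, and lies near Rasal3 at 2 h.

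Comparing 2 h of anti-IgM with 0 h asks how the regulators differed after stimulation in culture. In KO cells 6 of the 10 members were lower at an adjusted p under 0.05 and 0 were higher, where 27.1% of all tested genes were called and 13% were called lower. In WT cells 5 were lower and 0 were higher, where 19.8% of all tested genes were called and 9.06% were called lower. The median log2 difference over the 10 members was -1.03 in KO and -0.71 in WT, beside 0.04 in KO and 0.01 in WT over all tested genes. As the genes were assembled with these results in view, nothing is read from their share against the background. All libraries of one time lay apart from those of the other for 6 members in KO, all lower at 2 h, where this held for 37.5% of all tested genes and 19.6% were lower. In WT it held for 8 members, 7 lower and 1 higher, where it held for 43.9% of all tested genes, 22.7% lower and 21.3% higher. In bulk RNA, fewer cells of a type and less RNA per cell cannot be told apart. CPM is also relative to the other RNA of a library and does not give the amount of RNA per cell.

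**Figure D2:**
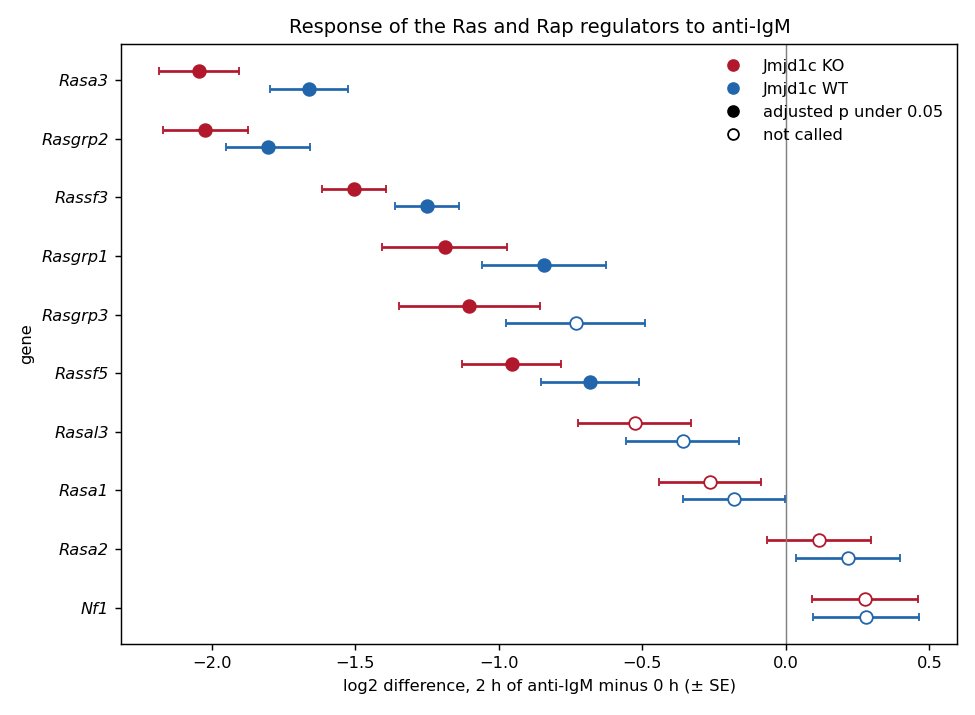
Log2 difference of each regulator between 2 h of anti-IgM and 0 h (x axis), with SE bars, in Jmjd1c KO and Jmjd1c WT cells. Filled points passed an adjusted p of 0.05, and Rasa3 and Rasgrp2 lie farthest to the left in both genotypes.

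Among the exchange factors Rasgrp2 fell most. Rasgrp2, on chromosome 19 from 6398957 to 6415216 (plus strand, GRCm38), encodes CalDAG-GEFI, which activates Rap. It was at 75.8, 82.4 and 99.1 CPM in KO and 113, 81.1 and 97.3 CPM in WT at 2 h, for replicates 1 to 3. At 0 h it was at 347, 344 and 359 CPM in KO and 361, 313 and 344 CPM in WT. Every 2 h library lay far below every 0 h library. The log2 difference was -2.02 ± 0.15 in KO (adjusted p = 2.11e-05) and -1.80 ± 0.15 in WT (adjusted p = 5.83e-05), so that 24.6% of the 0 h level was left in KO and 28.6% in WT. By p Rasgrp2 ranked 8 in KO and 9 in WT among the 12242 genes. Within animals the change was between -2.19 and -1.86 in KO and between -1.95 and -1.67 in WT.

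Rasgrp1, on chromosome 2 from 117279983 to 117342877 (minus strand), encodes a diacylglycerol-regulated exchange factor for Ras. It was at 41.3, 70.3 and 81.6 CPM in KO and 71.5, 60.0 and 82.2 CPM in WT at 2 h. The 0 h libraries were at 149, 144 and 154 CPM in KO and 128, 106 and 150.1 CPM in WT. All 2 h libraries lay below all 0 h libraries, and the lowest of them was the KO library of batch 1. Rasgrp1 fell by 1.19 ± 0.22 on the log2 scale in KO (adjusted p = 0.00233) and by 0.84 ± 0.22 in WT (adjusted p = 0.0173). The WT call was lost on leaving out replicate 1 at 0 h (adjusted p = 0.0532), replicate 3 at 0 h (0.0802) or replicate 2 at 2 h (0.0900). The 3 WT animals nonetheless moved alike, by -0.87 to -0.82.

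Rasgrp3, on chromosome 17 from 75435870 to 75529054 (plus strand), encodes the exchange factor for Ras and Rap that is prominent in B cells. It was at 105, 133 and 215 CPM in KO and 159.7, 119 and 195 CPM in WT at 2 h. Before stimulation it was at 327, 321 and 329 CPM in KO and 229, 267 and 293 CPM in WT. The 2 h libraries were all below the 0 h libraries of their genotype, with a wide spread at 2 h in which batch 3 was highest in both genotypes. The log2 difference was -1.10 ± 0.24 in KO (adjusted p = 0.00680), which passed, and -0.73 ± 0.24 in WT (adjusted p = 0.0542), which did not. The WT difference passed in 9 of 17 alternatives, among them the batch as a block (adjusted p = 0.0183) and the animal as a block (adjusted p = 0.0466).

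**Figure D3:**
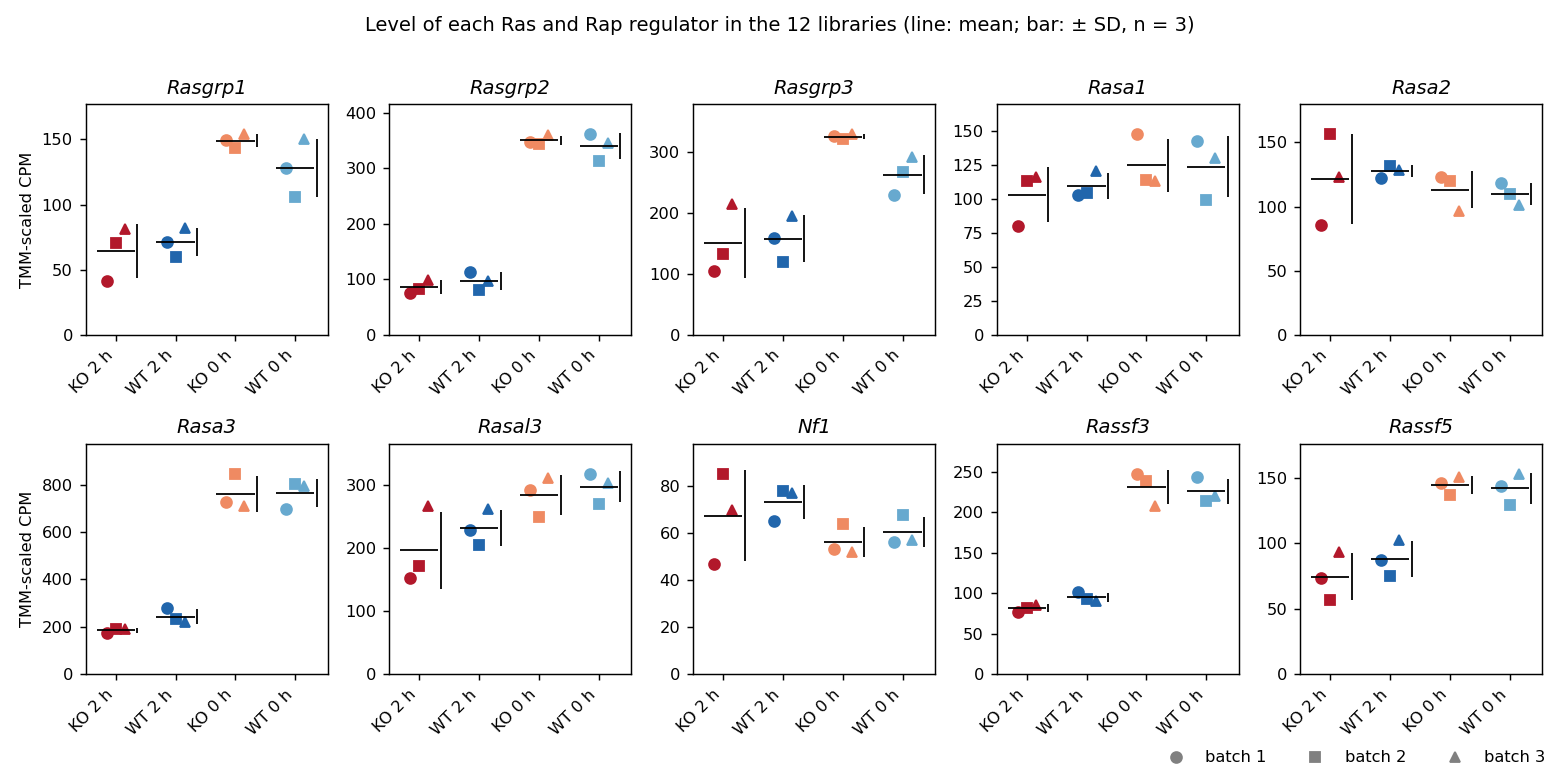
TMM-scaled CPM (y axis, each panel on its own scale from 0) of each regulator in the 12 libraries, by group, with the marker showing the batch, the line the mean and the bar the SD (n = 3). For Rasa3, Rasgrp2 and Rassf3 the 2 h libraries form a tight cluster well below the 0 h libraries, and the KO 2 h library of batch 1 is the lowest of its group in 9 of the 10 panels.

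Rasa3 had the smallest p of the 10 members in KO cells. Rasa3 lies on chromosome 8 from 13567218 to 13677587 (minus strand), and in platelets its product is the known counterpart of CalDAG-GEFI at Rap. It was at 172, 190.2 and 190.3 CPM in KO and 277, 231 and 218 CPM in WT at 2 h. At 0 h it was at 726, 847 and 709 CPM in KO and 697, 804 and 797 CPM in WT. The highest 2 h library was well below the lowest 0 h library. Rasa3 fell by 2.04 ± 0.14 on the log2 scale in KO (adjusted p = 1.92e-05) and by 1.66 ± 0.14 in WT (adjusted p = 5.83e-05). It kept 24.2% of the 0 h level in KO and 31.6% in WT, and ranked 5 in KO and 12 in WT by p.

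The other 4 GTPase-activating proteins did not pass the test in either genotype. Rasal3, on chromosome 17 from 32390659 to 32403582 (minus strand), was at 153, 171 and 267 CPM in KO and 228, 205 and 262 CPM in WT at 2 h. The 0 h libraries were at 293, 249 and 311 CPM in KO and 318, 270.1 and 304 CPM in WT. The groups overlapped in KO, and in WT all 2 h libraries lay below the 0 h libraries. The log2 difference was -0.53 ± 0.20 in KO (adjusted p = 0.0672) and -0.36 ± 0.20 in WT (adjusted p = 0.235). With 1 library left out the KO difference ranged over -0.81 to -0.38, and its largest adjusted p under any alternative was 0.183. The KO difference passed in 6 of 17 alternatives. These included the batch as a block (adjusted p = 0.0220), the animal as a block (adjusted p = 0.0360) and leaving out KO 2 h replicate 3, where it was -0.81 (adjusted p = 0.00443). Rasal3 shares 635 exonic bases with CT485616.1, a gene annotated on the opposite strand, and the sources used here do not say whether counting used strand.

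Rasa1, on chromosome 13 from 85214699 to 85289486, encodes p120 RasGAP, which binds phosphorylated receptors and adaptors. It averaged 103 ± 20.2 CPM in KO and 109.5 ± 9.68 CPM in WT at 2 h, and 125 ± 19.7 CPM in KO and 124 ± 22.2 CPM in WT at 0 h. Its log2 difference was -0.26 ± 0.18 in KO (adjusted p = 0.283) and -0.18 ± 0.18 in WT (adjusted p = 0.552), and the libraries of both times overlapped. Rasa2, on chromosome 9 from 96539300 to 96631612, encodes a GTPase-activating protein of the same family as Rasa3. Its log2 difference was 0.11 ± 0.18 in KO (adjusted p = 0.668) and 0.22 ± 0.18 in WT (adjusted p = 0.472). In WT its 2 h libraries, at 122 to 132 CPM, lay above the 0 h libraries, at 101 to 119 CPM. In KO the 2 h libraries spread over 85.6 to 156 CPM around the 0 h libraries at 96.5 to 123 CPM. Without KO 2 h replicate 2 the KO value was -0.11.

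Nf1, on chromosome 11 from 79339590 to 79581609 (plus strand), was at 46.7, 85.2 and 70.0 CPM in KO and 65.0, 77.7 and 76.9 CPM in WT at 2 h. Before stimulation it was at 53.1, 63.6 and 52.0 CPM in KO and 56.3, 67.8 and 56.9 CPM in WT. The log2 difference was 0.27 ± 0.19 in KO (adjusted p = 0.284) and 0.28 ± 0.18 in WT (adjusted p = 0.339), and the times overlapped in both genotypes. All animals but the KO animal of batch 1 had a higher value at 2 h than at 0 h. When KO 2 h replicate 1, with its 52.3% of Rn45s, was left out, the KO difference was 0.46 and passed (adjusted p = 0.0238). Introns of Nf1 hold Evi2, Evi2a, Evi2b and Omg on the opposite strand, which share 0 exonic bases with it.

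Both RASSF genes fell in both genotypes. Rassf3, on chromosome 10 from 121410350 to 121476250 (minus strand), encodes a member of a family that links Ras-type GTPases to the MST kinases. It was at 76.2, 82.0 and 85.6 CPM in KO and 102, 92.3 and 90.5 CPM in WT at 2 h. The 0 h libraries were at 248, 239 and 207 CPM in KO and 244, 214 and 219.6 CPM in WT. The 2 h libraries of each genotype were close together and far below those at 0 h. The log2 difference was -1.51 ± 0.11 in KO (adjusted p = 2.11e-05) and -1.25 ± 0.11 in WT (adjusted p = 7.60e-05).

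Rassf5, on chromosome 1 from 131176410 to 131245178 (minus strand), encodes RAPL, an effector of Rap in lymphocyte adhesion and migration. It was at 73.1, 56.9 and 93.0 CPM in KO and 87.1, 75.1 and 103 CPM in WT at 2 h. At 0 h it was at 146, 137 and 151 CPM in KO and 144, 129 and 153 CPM in WT. All 2 h libraries were below all 0 h libraries. Rassf5 fell by 0.96 ± 0.17 on the log2 scale in KO (adjusted p = 0.00214) and by 0.68 ± 0.17 in WT (adjusted p = 0.0153). The WT call did not hold on leaving out replicate 1 at 0 h (adjusted p = 0.0513), replicate 3 at 0 h (0.0645) or replicate 2 at 2 h (0.0805). Rassf5 shares 78 exonic bases with Eif2d on the opposite strand.

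The 6 members that passed in KO had every 2 h library below the 0 h libraries of its genotype. They and Rasal3 were lower at 2 h than at 0 h in every animal of both genotypes. The share of all tested genes lower in every animal was not computed, so nothing is read from this. Over the 12 libraries, the log2 CPM of Rasa3, Rasgrp2 and Rassf3 moved closely together, with Pearson r of 0.991 for Rasgrp2 and Rassf3, 0.990 for Rasa3 and Rassf3 and 0.985 for Rasgrp2 and Rasa3. These libraries share depth, batch and the 2 times, so the correlation is a description. Rasa2 and Nf1 ran together with r = 0.84 and against Rasgrp2, at -0.30 for Rasa2 and -0.48 for Nf1.

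Markers of other cells were read beside these results. The summed level of 10 T cell markers was 144 to 220.2 CPM in KO and 157 to 239 CPM in WT at 2 h, and 90.7 to 109.8 CPM in KO and 96.4 to 161 CPM in WT at 0 h. Of the 10 markers, 2 were called higher at 2 h in each genotype, Lck and Cd5, and the defining markers Cd3d, Cd3e, Cd3g, Cd4 and Cd8a each averaged under 10 CPM in every group. The platelet genes Pf4, Ppbp and Gp9 averaged under 1 CPM in every group. The whole platelet and erythroid list summed to 5.82 to 93.8 CPM in KO and 7.30 to 33.4 CPM in WT at 2 h. At 0 h it summed to 7.94 to 37.2 CPM in KO and 8.97 to 26.1 CPM in WT. Of its 4 tested genes 0 were called. Myeloid markers summed to 29.2 to 94.8 CPM in KO and 27.3 to 50.2 CPM in WT at 2 h. At 0 h they summed to 29.0 to 66.0 CPM in KO and 17.9 to 65.4 CPM in WT. Of 7 tested myeloid genes 0 were called. The highest sums of both lists, 93.8 and 94.8 CPM, were in the KO 2 h library of batch 1. NK cell markers summed to at most 15.6 CPM in any library, with 0 of 4 tested genes called. Cd79a, a signalling chain of the B cell receptor, averaged 309 CPM in KO and 332 CPM in WT at 2 h, and 559 CPM in KO and 532 CPM in WT at 0 h. It was called lower at 2 h in KO (adjusted p = 0.0147) and not in WT (adjusted p = 0.0503). Cd79b, the partner chain, was called lower in both genotypes (log2 difference -0.82 in KO and -1.06 in WT). Cr2, which encodes CD21, averaged 222 CPM in KO and 255 CPM in WT at 2 h, and 123 CPM in KO and 127 CPM in WT at 0 h, and was called higher in WT (adjusted p = 0.0387) and not in KO (adjusted p = 0.0580). The summed level of 7 markers of marginal zone and B1 B cells was 307 to 559 CPM in KO and 384 to 499.5 CPM in WT at 2 h, and 304 to 324 CPM in KO and 277 to 302 CPM in WT at 0 h. Of these 7 markers 1 was called higher and 1 lower in KO, and 1 was called higher and 2 lower in WT. The summed level of the plasma cell list was 958 to 2484 CPM in KO and 1836 to 2224 CPM in WT at 2 h. At 0 h it was 409 to 583 CPM in KO and 469 to 559 CPM in WT. Its member Irf4 averaged 1639 CPM in KO and 1905 CPM in WT at 2 h. At 0 h Irf4 was at 384 CPM in KO and 360 CPM in WT. From 0 h to 2 h Sdc1 went from 47.8 to 36.3 CPM in KO and from 70.7 to 67.2 CPM in WT. Xbp1 went from 55.6 to 57.9 CPM in KO and from 58.0 to 56.7 CPM in WT. Prdm1 went from 18.5 to 21.5 CPM in KO and from 13.8 to 27.0 CPM in WT. Of the 4 tested genes of the list, 1 was called higher in KO and 2 in WT, with 0 called lower. The part of any of these shifts in the results was not tested.

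Comparing KO with WT at 2 h asks whether Jmjd1c changed the stimulated level of the regulators. No member was called in edgeR, as was the case for 0 of all tested genes (0%), and the smallest adjusted p of any gene was 0.887. At an unadjusted p under 0.05 there were 640 of the 12242 genes, and 1 of the 10 members, Rasa3. DESeq2 called 2 genes and DESeq2 with the batch as a block called 19, none of them a member. All 10 point estimates were below 0, between -0.39 for Rasa3 and -0.06 for Rasa2 and Rasgrp3, with a median of -0.15 beside 0.01 over all tested genes.

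Rasa3 was lower in each KO library than in each WT library at 2 h, at 172 to 190.3 CPM in KO and 218 to 277 CPM in WT. The log2 difference was -0.39 ± 0.13 (adjusted p = 0.887), with an interval of -0.69 to -0.10. Rassf3 was separated in the same direction, at 76.2 to 85.6 CPM in KO and 90.5 to 102 CPM in WT (-0.22 ± 0.11, adjusted p = 0.887). Such separation was seen for 8.22% of all tested genes, 3.6% lower and 4.62% higher in KO. The other 8 members overlapped between genotypes at 2 h.

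The genotype differences at 2 h were uneven over the batches. In batch 1 all 10 members were lower in KO, by 0.79 for Rasgrp1 and 0.25 for Rassf5 at the ends of the range on the log2 scale. In batch 2 the difference was between -0.40 for Rassf5 and 0.25 for Rasa2, and in batch 3 between -0.20 for Rasa3 and 0.14 for Rasgrp3. Rasa3, Rassf3 and Rassf5 were lower in KO within each of the 3 batches. How many of all tested genes were so was not computed, and nothing is read from it. For Rasa3 the within-batch values were -0.69, -0.28 and -0.20, and without both 2 h libraries of batch 1 its difference was -0.23 (adjusted p = 0.99996). Without those libraries Rasgrp1, Rasgrp2, Rasgrp3, Rasa1, Rasa2 and Nf1 had point estimates above 0, between 0.01 and 0.15.

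**Figure D4:**
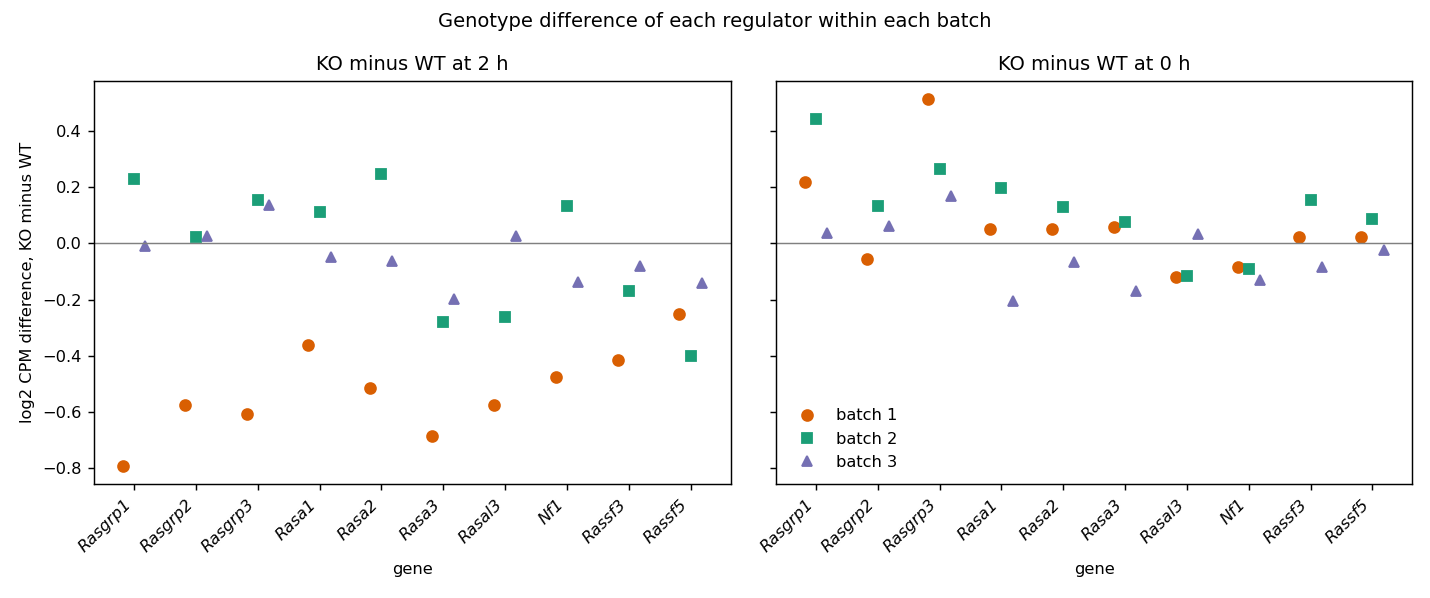
Log2 CPM difference of KO minus WT (y axis) within each batch, for each regulator, at 2 h (left) and at 0 h (right), with 1 point per batch. At 2 h the points of batch 1 all lie below 0, from -0.79 to -0.25, while those of batches 2 and 3 lie on both sides of 0.

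Comparing KO with WT at 0 h asks the same of resting cells. No member was called in edgeR, nor was any other gene (0%), with 91 genes and 0 members at an unadjusted p under 0.05. DESeq2 called 1 gene and DESeq2 with the batch as a block called 4, none of them a member. The point estimates ran from -0.10 for Nf1 to 0.31 for Rasgrp3, with 7 above 0 and 3 below it, and the median was 0.03 beside -0.0023 over all tested genes. Rasgrp3 was the exception to the overlap of the genotypes, at 321 to 329 CPM in KO and 229 to 293 CPM in WT (0.31 ± 0.24, adjusted p = 0.9999). Such separation was seen for 5.85% of all tested genes, 2.95% higher and 2.9% lower in KO. Within each batch Rasgrp3 was higher in KO, by 0.51, 0.27 and 0.17. Rasgrp1 was also higher in KO in each batch, by 0.035 to 0.44, and Nf1 was lower in each, at -0.13 to -0.084. How many of all tested genes kept 1 sign over the batches was not computed. Rasa3 at 0 h differed by -0.01 ± 0.13, with an interval of -0.30 to 0.28.

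Whether KO and WT cells responded differently to anti-IgM was tested in the same fit. No gene was called, member or not (0%), and 40 genes and 0 members had an unadjusted p under 0.05. DESeq2 called 0 genes with and without the batch as a block. All 10 point estimates were negative, from -0.38 ± 0.19 for Rasa3 (adjusted p = 0.9999, interval -0.80 to 0.03) to -0.01 ± 0.26 for Nf1 (interval -0.58 to 0.57). Their median was -0.24, beside 0.0059 over all tested genes, of which the negative share was not computed. These estimates share the KO 2 h library of batch 1, the lowest of its group for 9 of the 10 members, so their common sign is a description. Rasgrp3 was at -0.37 ± 0.34, Rasgrp1 at -0.34 ± 0.30 and Rassf3 at -0.25 ± 0.16. Under the alternatives Rasgrp3 ranged over -0.72 to -0.16, Rasgrp1 over -0.55 to -0.12 and Rasgrp2 over -0.34 to -0.015. Rasa3 ranged over -0.45 to -0.22, and the signs of Rasa1, Rasa2 and Nf1 turned under some of them. A larger fall in KO than in WT was therefore not shown for any member, although Rasgrp3 passed in KO cells and not in WT cells.

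Other genes of the pathway were read from a list of 111 ordered by role, of which 110 were in the files and 104 were tested. At 2 h against 0 h, 11 were called higher and 23 lower in KO, and 7 were called higher and 14 lower in WT. Over all tested genes 14.1% were called higher and 13% lower in KO, and 10.7% were called higher and 9.06% lower in WT, so nothing particular to the list is read from these counts or from those by role. The median log2 difference was -0.20 in KO and -0.11 in WT. None was called between genotypes. Cblb, a ubiquitin ligase that restrains antigen receptor signals, fell by 1.94 ± 0.22 on the log2 scale in KO (adjusted p = 0.000179) and by 1.55 ± 0.22 in WT (adjusted p = 0.000792). Dgka, a kinase that removes diacylglycerol, the lipid that activates RasGRP proteins, fell by 2.03 ± 0.20 in KO (adjusted p = 9.01e-05) and by 1.53 ± 0.20 in WT (adjusted p = 0.000510). Among the adaptors and diacylglycerol enzymes 8 of 24 were lower in KO, 5 of 24 were lower in WT and 0 were higher.

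Of 16 other exchange factors 5 were lower and 1 higher in KO, and 2 were lower and 1 higher in WT. Ralgps2, an exchange factor for Ral, was at 146 ± 49.1 CPM in KO and 182 ± 45.1 CPM in WT at 2 h, against 473 ± 10.5 CPM in KO and 474 ± 66.7 CPM in WT at 0 h (log2 difference -1.70 in KO and -1.38 in WT). Sos2, a Ras exchange factor recruited by receptors, was called lower in both genotypes (-0.78 in KO and -0.84 in WT). Of 18 other GTPase-activating proteins 3 were lower and 2 higher in KO, and 2 were lower and 1 higher in WT. Rasal1, a calcium-regulated Ras GTPase-activating protein, was at 120.0 ± 61.2 CPM in KO and 127 ± 32.5 CPM in WT at 2 h, against 38.3 ± 7.30 CPM in KO and 38.4 ± 8.45 CPM in WT at 0 h (1.67 in KO and 1.73 in WT). Sipa1, a Rap GTPase-activating protein of lymphocytes, was called lower (-1.02 in KO and -0.93 in WT). Rassf4 (-0.88 in KO and -0.74 in WT) and Pebp1, a Raf inhibitor (0.98 in KO and 0.64 in WT), were also called in both genotypes.

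Other pathway genes named here, apart from Spred1, lost a call under some alternatives, in KO, in WT or in both. The calls of Rap1b, Sipa1l1 and Rgl1 in WT and of Rheb, Apbb1ip and Spred1 in KO held under all 17 alternatives. For called genes that are not named, the alternatives were not read gene by gene. Ksr1, a scaffold of the Raf and MEK kinases, was higher (0.95 in KO and 0.96 in WT), but the call was lost on leaving out any of KO 0 h replicates 1 to 3 or KO 2 h replicate 2 in KO (adjusted p of 0.0774 to 0.136), and any WT library but 2 h replicate 1 in WT (0.0757 to 0.164). Rgl1, a Ral exchange factor, was higher (1.05 in KO and 1.49 in WT), and in KO the call was lost without any 1 library but 2 h replicate 1 (adjusted p of 0.0509 to 0.112) and with the animal as a block (0.0516). Rheb, an activator of mTORC1, was higher (0.55 in KO and 0.35 in WT), and in WT the call was lost without any 1 library but 2 h replicate 1 (adjusted p of 0.0535 to 0.0909) and with the animal as a block (0.0528). Rap1b, a Rap GTPase, was higher (0.48 in KO and 0.59 in WT), and the KO call was lost without KO 0 h replicate 3 (adjusted p = 0.0510). Rras2 was lower (-0.50 in KO and -0.47 in WT), and the WT call was lost when WT 0 h replicate 3 or WT 2 h replicate 2 was left out (adjusted p of 0.0505 and 0.0612). Sipa1l1, a Rap GTPase-activating protein, was lower (-0.92 in KO and -1.04 in WT), and the KO call was lost without KO 0 h replicate 2 (adjusted p = 0.0509).

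Among the Rap effectors of integrin adhesion, Apbb1ip, which encodes RIAM, was called lower in both genotypes (-0.74 in KO and -0.45 in WT). The WT call was lost without any 1 library but 0 h replicate 2 (adjusted p of 0.0510 to 0.130). Fermt3, which encodes kindlin-3, was called in WT (-0.30, adjusted p = 0.166, in KO and -0.57, adjusted p = 0.0229, in WT), and that call was lost without WT 0 h replicates 1 or 3 or WT 2 h replicates 2 or 3 (0.0678 to 0.0870), while in KO it passed without KO 2 h replicate 1 (adjusted p = 0.00369). Spred1, Ralb, Rassf6 and Rassf2 were called in KO and not in WT, with no call of a difference between the responses. Spred1, an inhibitor of Ras signalling, was at 1.59 in KO (adjusted p = 0.0114) and 1.12 in WT (adjusted p = 0.0646), and in WT it passed with the batch as a block (0.0469), with the animal as a block (0.0386) and without WT 0 h replicate 2 (0.0361). Ralb (0.85 in KO and 0.56 in WT) lost its KO call without any 1 library but 2 h replicate 3 (adjusted p of 0.0521 to 0.0833) and with the animal as a block (0.0533). Rassf6 (2.38 in KO and 1.12 in WT) lost it without any KO 0 h library or without KO 2 h replicate 1 (0.0577 to 0.131) and with the animal as a block (0.0610), at 6.55 ± 5.47 CPM in KO at 2 h. Rassf2 was at -0.94 in KO (adjusted p = 0.00974) and -0.58 in WT (adjusted p = 0.0946), and in WT it passed in 5 of 17 alternatives, among them DESeq2 (0.0297) and the fit of the WT groups alone (0.0138). In the fit of the KO groups alone the KO calls of Rap1b, Rras2, Rgl1, Sipa1l1, Ksr1, Ralb, Rassf6 and Rassf2 were lost as well (adjusted p of 0.0528 to 0.106). Without a filter on low counts those of Rap1b and Ralb in KO and of Rheb and Apbb1ip in WT were lost (0.0644 to 0.0826).

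**Figure D5:**
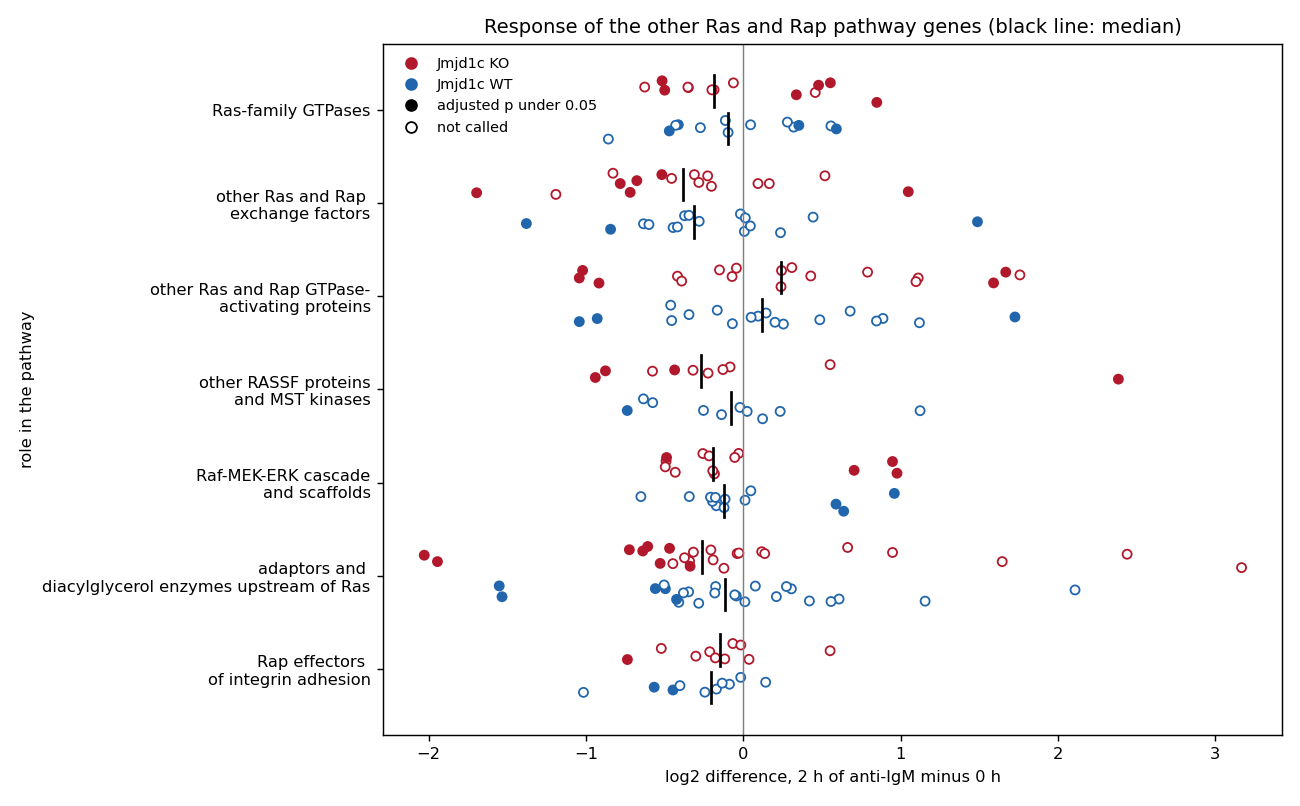
Log2 difference between 2 h of anti-IgM and 0 h (x axis) of the 104 tested genes of the pathway list, by role (y axis), in Jmjd1c KO and Jmjd1c WT cells, with filled points for an adjusted p under 0.05 and a black line at the median of each role. Medians lie between -0.38 and 0.24 in KO and between -0.31 and 0.12 in WT. Single genes lie farther out, such as Dgka at -2.03 and Rassf6 at 2.38 in KO.

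The genes whose log2 CPM followed the members most closely over the 12 libraries were sought among 8808 candidates whose log2 CPM averaged 3 or more. Rasa3 was followed by Irak3 (Pearson r = 0.998), an inhibitor of Toll-like receptor signals, and Fmnl1 (r = 0.995), a formin. Rasgrp2 was followed by Gdi2 (r = 0.996), a Rab GDP dissociation inhibitor, and Prkd2 (r = 0.996), a protein kinase D that diacylglycerol activates. Rassf3 was followed by Prkd2 (r = 0.996) and Fmnl1 (r = 0.994). Rasgrp1 was followed by Cables2 (r = 0.992) and Kctd3 (r = 0.991), and Rassf5 by Inpp5k (r = 0.986) and Hhex (r = 0.983). The 12 libraries share the 2 times, the batches and their depths.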

How the data were processed

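The submitters' processing notes name STAR and the build mm10. How reads were counted, with or without strand and on which annotation, the sources used here do not say. Each library had 1 deposited file of raw counts by symbol, all whole numbers. Rows without a gene name were absent, and 2 symbols stood on 2 lines.

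Low counts were filtered by filterByExpr, given the 4 groups. With TMM scaling, edgeR 4.0.16 (R 4.3.3) fitted a quasi-likelihood model of the 4 group means over the 12 libraries. The 5 contrasts were adjusted with Benjamini-Hochberg over all 12242 genes, two-sided, and called at an adjusted p under 0.05. SE derives from the F statistic, and intervals are 95%. CPM was computed here from the counts. A count of 0 allows 3 counts, or 0.183 to 1.02 CPM per library (counting error only). Levels per kb used merged exons of GENCODE M21 (GRCm38), and promoters came from a RefSeq table of GRCm38.p6. Motifs were searched with Python 3.11.15. The fit was also run on simulated counts that held no batch or animal effect, so that run does not test the fit under such effects.

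The members, the gene lists and the naming rule were chosen with earlier results of these data known. The rule named the 10 members, Jmjd1c, Rn45s and Mki67, and from each role of the pathway list the 2 called genes with the largest change at 2 h in each genotype. Genes that followed a member were sought for members called in both genotypes. Sipa1 and Sos2 were named beyond this rule after their values were seen.

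Batch numbers paired the samples, since the labels call them a batch and both times of an animal carry the same number. Across genes, deviations from group means correlated at -0.40 to 0.86 between libraries of the same number, -0.76 to 0.62 between different numbers and -0.40 to 0.59 within an animal. No replicate pair agreed within sampling noise. Alternatives were RLE size factors, other filters, only the groups compared, DESeq2 1.42.0, batch or animal as a block, Rn45s left out, each library left out, and both batch 1 libraries at 2 h left out. A follicular B cell marker, and the summed level of the list that holds it, are not reported here.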

Additional observations from a re-analysis of the deposited data

How the results depend on the processing

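In KO, 6 to 9 members were called at 2 h against 0 h under the 17 alternatives, and none of the 6 calls was lost. In WT the count of 5 was 3 to 5 with 1 library left out, and 9 (2 higher) when the batch block was combined with leaving out both batch 1 libraries at 2 h, an alternative that like DESeq2 with the batch block was chosen after seeing the data. Of the other pathway genes 21 were called in WT, with 12 to 18 on leaving out 1 library, 34 in DESeq2 with the batch block and 49 under that combination. In KO there were 34, with 20 to 37 on leaving out 1 library, 13 in the fit of only the 2 groups compared and 52 under that combination. The cause was not tested. No member was called between genotypes, or for the difference of the responses, under any alternative, but signs of uncalled differences turned. With 1 library left out, KO against WT at 0 h ranged over -0.010 to 0.090 for Rasgrp2, -0.13 to 0.12 for Rasa1, -0.021 to 0.15 for Rasa2, -0.094 to 0.038 for Rasa3, -0.13 to 0.022 for Rasal3, -0.019 to 0.11 for Rassf3 and -0.038 to 0.084 for Rassf5. At 2 h it ranged over -0.34 to 0.091 for Rasgrp1, -0.41 to 0.14 for Rasgrp3, -0.17 to 0.070 for Rasa1, -0.28 to 0.13 for Rasa2 and -0.31 to 0.081 for Nf1. Leaving out both batch 1 libraries at 2 h gave 0.10 for Rasgrp1, 0.032 for Rasgrp2, 0.15 for Rasgrp3, 0.034 for Rasa1, 0.11 for Rasa2 and 0.0084 for Nf1, and the combination with the batch block gave 0.10 for Rasgrp1, 0.032 for Rasgrp2, 0.15 for Rasgrp3, 0.036 for Rasa1 and 0.093 for Rasa2. The 2 h response of Rasa2 in KO ranged over -0.11 to 0.30 with 1 library left out. The difference of the responses then ranged over -0.20 to 0.061 for Rasa1, -0.32 to 0.087 for Rasa2, -0.21 to 0.18 for Nf1 and -0.042 to 0.12 for Jmjd1c. With both batch 1 libraries at 2 h left out that difference was 0.023 for Rasa1, 0.061 for Rasa2 and 0.11 for Nf1, and under the combination it was 0.025 for Rasa1, 0.053 for Rasa2 and 0.093 for Nf1. With all libraries kept, the batch or animal block in edgeR changed no other member's call at 2 h against 0 h than those of Rasgrp3 in WT and Rasal3 in KO. The combination also called Rasa2 (adjusted p = 0.0124 in KO and 0.0334 in WT) and Nf1 (0.00324 in KO and 0.0184 in WT) higher, and Rasa2 was called under no other alternative. The fit of 2 groups alone applies to no difference of responses, and the animal block to no genotype contrast, so these were not run.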
